A study of Mus musculus with 4 samples.

Results

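Prothymosin alpha, parathymosin, the beta-thymosins and the high mobility group (HMG) proteins are small, abundant proteins, and the 10 genes described here encode them: Ptma, Ptms, Tmsb4x, Tmsb10, Hmgb1, Hmgb2, Hmgn1, Hmgn2, Hmga1 and Hmga2. They were listed by family and looked up by gene symbol in the annotation of a spotted mouse array. Of the 10, 9 were on named spots, each on 2 neighbouring spots, which makes 9 of the 14386 genes on named spots of the series. Hmga1 was on no spot named here. The set was chosen by protein family and selected on the earlier known log2 ratios of these same arrays, so the members' ratios are a description and are not put to a test.

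The study followed CGR8 cells, a mouse embryonic stem cell line, from the undifferentiated state at day 0 through culture in hanging drops as embryoid bodies, which are free-floating clusters of differentiating cells. Total RNA taken at day 3 shared 2 arrays with day 0 RNA, and total RNA taken at day 10 shared 2 further arrays with day 0 RNA, 1 sample in each channel. The labels name 1 cell line, no further treatment and no gene change in any group, and the second array of each day is called a technical replicate. Each day is therefore 1 RNA pair, every SD below is that of 2 technical arrays, and no p-value can be given. The labels do not say which channel was the numerator or which dye it carried, so "positive" and "negative" refer to the deposited sign and do not say on which day a transcript was higher. All 4 arrays list day 0 RNA as channel 2, but whether both days had the same numerator is not stated, so every statement below that sets a sign at day 3 against a sign at day 10 is one of deposited signs. In RNA of whole embryoid bodies, fewer cells of a type and less RNA per cell cannot be told apart.

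The families differ in where they act. Prothymosin alpha and parathymosin are very acidic, unstructured proteins, and the former binds linker histones and is plentiful in dividing cells. The beta-thymosins share the name for historical reasons only: they are short cytoplasmic peptides that hold actin monomers and keep them out of filaments. HMGB proteins bend DNA with their HMG boxes, HMGN proteins bind the nucleosome core and compete with linker histone H1 for chromatin, and HMGA proteins hold AT-rich DNA through short AT-hooks. Hmga2 is a gene of embryonic and undifferentiated cells and a textbook target of the let-7 microRNAs.

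The arrays carried 46128 spots, of which 32064 named a single gene and were no control, and between 10.3% and 18.8% of all spots had no value on an array. Values are log2 ratios less the median of the named spots of their array, so 1 unit is a 2-fold ratio, and a gene is the mean of its spots. Technical arrays correlated weakly over genes, with Pearson's r of 0.27 at day 3 and 0.22 at day 10, and the median SD between them was 0.28 and 0.36. Of genes beyond 2-fold on both arrays, 102 at day 3 and 198 at day 10 stood on opposite sides and were not called.

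The promoters of Ptma, Hmgn1 and Hmgb2 are shown here. The first pair were the members beyond 2-fold at day 3, and Hmgb2, ranked among the brighter members below, stayed near 0. The sequences come from RefSeq on build GRCm38.p6 and cover the 250 bases before the annotated start, 5′ to 3′ on the strand of the gene. They lie at chr1:86526307-86526556 (plus strand) for Ptma, at chr16:96127726-96127975 (minus strand) for Hmgn1 and at chr8:57511593-57511842 (plus strand) for Hmgb2. Capitals mark a GC box (GGGCGG) or a CCAAT box (CCAAT) on either strand.
Ptma: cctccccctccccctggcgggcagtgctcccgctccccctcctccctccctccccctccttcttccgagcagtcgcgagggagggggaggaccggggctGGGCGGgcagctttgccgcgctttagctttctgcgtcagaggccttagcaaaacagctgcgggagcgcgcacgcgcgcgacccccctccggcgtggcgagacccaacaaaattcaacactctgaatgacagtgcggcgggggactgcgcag
Hmgn1: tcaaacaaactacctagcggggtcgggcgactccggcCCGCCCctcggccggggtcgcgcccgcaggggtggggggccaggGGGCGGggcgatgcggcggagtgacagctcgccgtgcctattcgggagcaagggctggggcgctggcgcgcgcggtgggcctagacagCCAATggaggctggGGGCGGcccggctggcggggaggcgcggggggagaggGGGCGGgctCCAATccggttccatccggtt
Hmgb2: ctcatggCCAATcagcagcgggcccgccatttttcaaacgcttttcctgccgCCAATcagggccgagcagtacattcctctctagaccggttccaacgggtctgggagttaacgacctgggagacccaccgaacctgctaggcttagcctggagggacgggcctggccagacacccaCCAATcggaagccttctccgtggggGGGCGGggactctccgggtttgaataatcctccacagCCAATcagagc
The Ptma window held 1 GC box and no CCAAT box, the Hmgn1 window 4 GC boxes and 2 CCAAT boxes, and the Hmgb2 window 1 GC box and 4 CCAAT boxes. The motifs do not overlap one another in these windows.

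Promoters of all 10 genes were matched in the RefSeq table, some with several starts, which gave 14 windows. A GC box lay in at least 1 window of 10 of the 10 genes, a CCAAT box in windows of 3 (Hmgb1, Hmgb2 and Hmgn1), the E-box CACGTG in windows of 2 (Hmgb1 and Hmgn2) and the TATA box TATAAA in none. Counted by window, 13 of the 14 held a GC box, 3 a CCAAT box, 2 the E-box and 0 the TATA box. The windows are not independent, because the 2 of Hmga1 overlap for most of their length and Tmsb10 gave 3. Of 32851 such windows in the table, 32.7% held a GC box, 33.8% a CCAAT box, 6.02% the E-box and 12.4% the TATA box. The share of G and C in the 14 windows ran from 52.0% (Tmsb4x) to 78.8% (a window of Hmgb1), with a median of 68.8%, against a median of 52.4% over all windows. Ptma had 69.2%, Hmgn1 76.0%, Hmgb2 60.4% and Hmga2 56.4%. These letter matches describe the windows and say nothing of which factor is bound there.

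Ptma had the gene means farthest from 0 of the 9 members on both days, and on opposite sides by the deposited sign. At day 3 its first spot had centred log2 ratios of 2.80 and 2.81 on the 2 arrays and its second spot 2.71 and 2.90. At day 10 the first spot had -1.90 and -1.18 and the second -1.73 and -0.98. All 4 readings of day 3 were positive and all 4 of day 10 negative, and the days did not overlap. The gene mean was 2.80 ± 0.07 (SD, n = 2 technical arrays) at day 3, a 6.99-fold ratio between the channels and the value of rank 3 from the top among 13707 genes. At day 10 it was -1.45 ± 0.52, a 2.73-fold ratio to the other side.

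Hmgn1, whose protein loosens compact chromatin by binding nucleosomes, was the other member beyond 2-fold at day 3. Its spots had 0.86 and 1.26 on the first day 3 array and 1.55 and 1.498 on the second. On the day 10 arrays they had -0.58 and -0.37, then 0.03 and -0.20. The day 3 readings were thus all positive and above every day 10 reading, while the day 10 readings lay between -0.58 and 0.03, inside the limit. The gene mean was 1.29 ± 0.33 at day 3 and -0.28 ± 0.28 at day 10. The first day 3 array, at 1.06, was only just beyond the limit of 1 (2-fold), and the first spot on it was inside the limit.

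**Figure D1:**
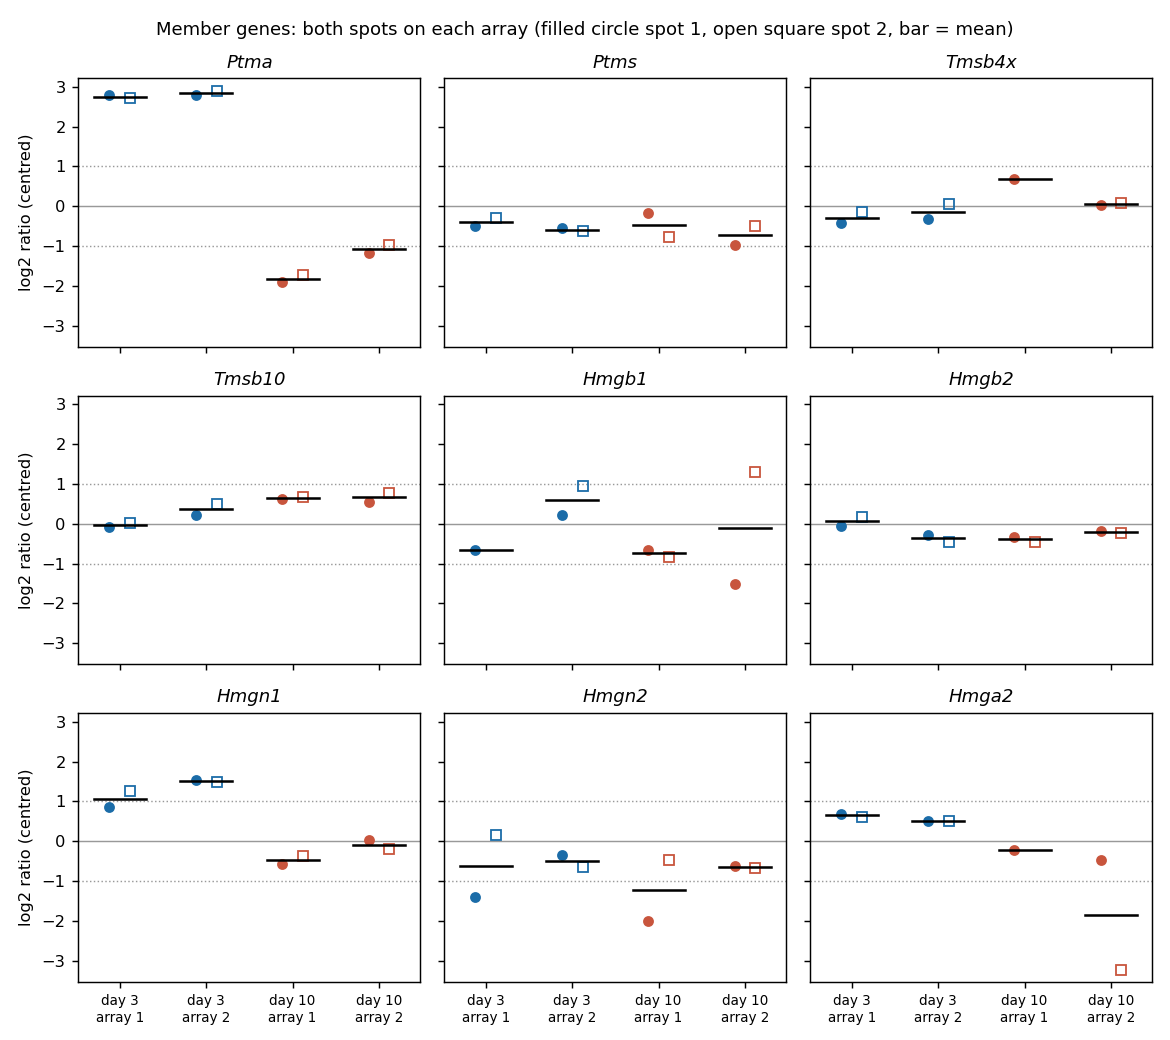
Centred log2 ratio (vertical axis) of both spots of each of the 9 genes on the 4 arrays (horizontal axis), with filled circles for the first spot, open squares for the second, bars for their mean and dotted lines at the 2-fold limit. Ptma lies between 2.71 and 2.90 at day 3 and between -1.90 and -0.98 at day 10, whereas the spots of Hmgb1, Hmgn2 and Hmga2 part widely on single arrays.

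Beyond 2-fold on both arrays, on 1 side, were 2 of the 9 measured members at day 3 (Ptma and Hmgn1, both positive), against 2.8% of all 13707 genes measured at that day. The positive side alone held 1.82% of all genes and the negative side 0.978%. At day 10 the count was 1 of 9 (Ptma, negative), against 3.65% of 13199 genes, of which 1.29% of all genes lay on the negative side and 2.36% on the positive. Because the members were selected with their ratios known, nothing is read from these counts. The median of the 9 gene means was -0.03 at day 3 and -0.42 at day 10, where all genes had medians of 0.01 at both days.

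Ptma's day 10 call is narrow. After a brightness trend was removed from each array, its values there were -1.74 and -0.999, the second just inside the limit, and no member was beyond 2-fold at day 10.

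Ptms, which encodes parathymosin, the acidic relative of prothymosin alpha, did not share the Ptma pattern. Its spots had -0.51 and -0.29 on the first day 3 array and -0.55 and -0.62 on the second. On the day 10 arrays they had -0.18 and -0.78, then -0.96 and -0.49. All 8 readings were negative, and the days overlapped. The means were -0.49 ± 0.13 at day 3 and -0.60 ± 0.18 at day 10, both inside the 2-fold limit. The pair of acidic proteins therefore had ratios 3.30 apart on the log2 scale at day 3 and 0.85 apart, in the other order, at day 10.

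The beta-thymosin genes stayed near 0 at day 3 and lay on the positive side at day 10, inside the limit. Tmsb10 had spot readings of -0.08, 0.01, 0.22 and 0.51 at day 3 and of 0.61, 0.66, 0.56 and 0.78 at day 10. Every day 10 reading was above every day 3 reading. Its means were 0.17 ± 0.28 and 0.65 ± 0.02, the latter a 1.57-fold ratio and the highest day 10 value of the 9 members. At a limit of 1.5-fold on both arrays it passed at day 10, as did 1825 of all 13199 genes, 1043 of them on the positive side. Ptma and Hmgn2 passed that limit on the negative side.

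Tmsb4x, the X-linked gene of thymosin beta-4, the main monomer-binding peptide of many cells, had readings that were less even. At day 3 its spots had -0.43 and -0.15 on the first array and -0.33 and 0.06 on the second. At day 10 the first spot had 0.70 on the first array, where the second spot carried no value, and on the second array the spots had 0.04 and 0.08. The high reading on the first day 10 array therefore rests on a single spot. The means were -0.21 ± 0.11 at day 3 and 0.38 ± 0.45 at day 10, and the SD at day 10 exceeded the mean.

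Neither HMG-box gene was beyond the limit. Hmgb2, the HMGB form of dividing cells, had -0.05, 0.17, -0.29 and -0.45 at day 3 and -0.32, -0.46, -0.18 and -0.23 at day 10. Its readings overlapped between the days, with means of -0.16 ± 0.30 and -0.30 ± 0.13. Hmgb1, a chromatin protein that also acts as an alarm signal outside cells, could not be placed. Its first spot had -0.66 and 0.23 at day 3 and -0.65 and -1.51 at day 10. Its second spot carried no value on the first day 3 array and had 0.96, -0.82 and 1.30 on the others. On the second day 10 array the 2 spots of Hmgb1 thus stood 2.82 apart on opposite sides of 0, and the means of -0.03 ± 0.88 and -0.42 ± 0.45 average readings that disagree.

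Hmgb1 also has 13 genes in the RefSeq table named as its pseudogenes, related sequences or likes, more than any other member. Ptma and Hmgn2 have 2 each and Hmga2 has 1. Such near-identical copies can hybridise to the same spot, so these values are uncertain. Of the Hmgb1 copies, Hmgb1-rs18 was on named spots of its own, with array values of 0.51 and -0.88 at day 3 and 0.25 and -0.51 at day 10, and Hmgb1-rs16 had -0.67 and 0.49 at day 3 and -0.38 on the second day 10 array alone. Both were looked up after the values of Hmgb1 had been seen, and the technical arrays of each stood on opposite sides wherever both carried a value.

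Hmgn2, the second nucleosome-binding gene, lay on the negative side, away from Hmgn1. Its spots had -1.41 and 0.16 on the first day 3 array and -0.34 and -0.66 on the second. At day 10 they had -1.995 and -0.47 on the first array and -0.61 and -0.67 on the second. Of the 8 readings 7 were negative, and the first spot on the first array of each day was far below the rest. The means were -0.56 ± 0.09 at day 3 and -0.94 ± 0.42 at day 10, so the small SD at day 3 hides spots that differed by 1.57.

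Hmga2, the AT-hook gene of embryonic cells, was on the positive side at day 3 and the negative at day 10. At day 3 its spots had 0.69 and 0.60 on the first array and 0.51 and 0.51 on the second, close together. At day 10 the first spot had -0.21 and -0.46, and the second spot had no value on the first array and -3.22 on the second. The mean at day 3 was 0.58 ± 0.09, a 1.49-fold ratio inside the limit. The day 10 mean of -1.03 ± 1.15 depends on the 1 reading of -3.22: the first spot alone gave -0.34.

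**Figure D2:**
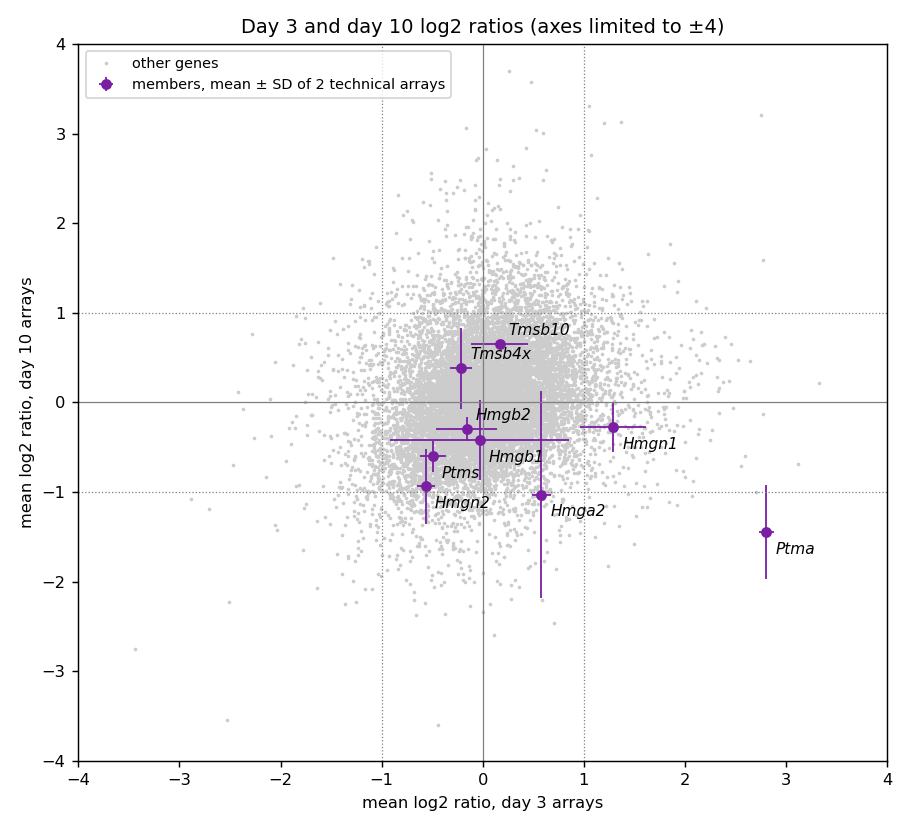
Mean log2 ratio of the day 3 arrays (horizontal) against that of the day 10 arrays (vertical) for 12654 genes with values on all 4 arrays (grey, 1 of them outside the plotted range) and the 9 members (purple, with bars of 1 SD of 2 technical arrays). Ptma, at 2.80 and -1.45, stands beyond the dotted 2-fold limits on both axes, Hmgn1 beyond the day 3 limit only, and the bars of Hmgb1 and Hmga2 are the longest.

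Among the members the order at day 3 was Ptma, Hmgn1, Hmga2, Tmsb10, Hmgb1, Hmgb2, Tmsb4x, Ptms and Hmgn2, from the most positive to the most negative. Of the 8 steps between neighbours in that order, 4 were larger than their combined SD: Ptma over Hmgn1 (1.51), Hmgn1 over Hmga2 (0.71), Hmga2 over Tmsb10 (0.41) and Tmsb4x over Ptms (0.28). The other 4 steps lay within it. At day 10 the order was Tmsb10, Tmsb4x, Hmgn1, Hmgb2, Hmgb1, Ptms, Hmgn2, Hmga2 and Ptma, and 1 of 8 steps exceeded its combined SD, that of Tmsb4x over Hmgn1 at 0.66. Each value here is a ratio between 2 channels of 1 gene, so the order is one of ratios and not of transcript levels.

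Day 10 was also set against day 3, on the assumptions, not stated in the labels, that 1 day 0 RNA served every array and that the numerator was the same channel on both days. The difference of the log2 ratios, day 10 minus day 3, was -4.25 ± 0.53 for Ptma (SD combined from both pairs of technical arrays), a 19.0-fold change and the lowest of 12654 genes. Hmgn1 differed by -1.57 ± 0.43, a 2.97-fold change. These 2 of 9 members were beyond 2-fold in each of the 4 pairings of a day 10 with a day 3 array, against 3.56% of all genes (1.69% on the negative side, 1.87% on the positive). Hmga2 differed by -1.61 ± 1.16 and was not beyond 2-fold in all 4 differences, because its first day 10 array (-0.21) lay within 2-fold of both day 3 arrays (0.65 and 0.51). With the spot of the closest arrays alone its difference was -0.89. Tmsb4x differed by 0.59 ± 0.46, Tmsb10 by 0.49 ± 0.28, Hmgb1 by -0.39 ± 0.99, Hmgn2 by -0.38 ± 0.43, Hmgb2 by -0.14 ± 0.33 and Ptms by -0.11 ± 0.22. Of these 6, only the 2 beta-thymosin genes had a difference larger than its SD. With the sign of the day 10 ratios turned, as the opposite numerator would give, the difference was -1.36 ± 0.53 for Ptma (2.56-fold, rank 1006 from the lowest) and -1.01 ± 0.43 for Hmgn1 (2.02-fold). Neither was then beyond 2-fold in each pairing, and the 1 member that was, Hmgn2, differed by 1.501 ± 0.43. The size and order of these differences thus depend on the unstated numerator. The 3 comparisons share arrays, so a difference between days is not a result apart from the ratios above.

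The spots of the members, taken singly, leaned to one side at day 10. Of 34 readings at day 10, 9 (26.5%) were positive, against 50% of all 54305 readings of named spots. At day 3, 20 of 35 (57.1%) were positive. All 9 positive readings of day 10 came from Tmsb10, Tmsb4x, Hmgb1 and Hmgn1, and 4 of them from Tmsb10. Spots of a gene share its sequence and arrays its RNA, so these readings are not replicates.

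Duplicate spots show how far single readings can be trusted. Over all genes, the 2 neighbouring spots of a sequence differed by a median of 0.35 and 0.33 (log2) at day 3 and 0.54 and 0.41 at day 10, and stood on opposite sides of 0 in between 30.5% and 35.4% of pairs. The spots of Ptma differed by at most 0.20 and those of Hmgb2 by at most 0.22, below the array medians on every array. The spots of Hmgn1 differed by at most 0.40 and those of Tmsb10 by at most 0.28. Those of Ptms differed by 0.60 and 0.47 on the day 10 arrays, above the medians there. At the other end, the differences of 2.82 for Hmgb1 and 2.76 for Hmga2 on the second day 10 array stood at the 97.4th and 97.2nd percentile of the pairs there, and the spots of Hmgn2 stood 1.57 and 1.52 apart on the first array of each day.

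**Figure D3:**
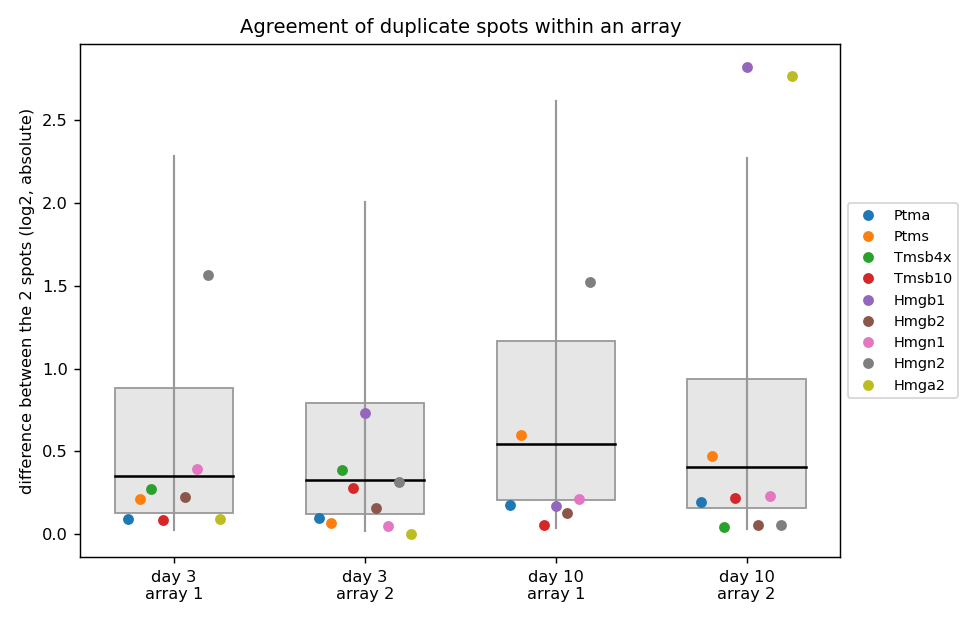
Absolute difference between the 2 spots of a gene (vertical axis, log2) on each array (horizontal axis), with the middle 50% of all pairs as a grey box, the 5th to 95th percentile as a line, the median as a black bar and the members as coloured points. Ptma lies low on all arrays, at no more than 0.20, while Hmgb1 and Hmga2 lie above the 95th percentile on the second day 10 array.

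The spread went with brightness, which can be recovered in part from the values. A deposited log2 ratio can be matched to the smallest pair of whole numbers that gives it to its 9 decimals, and the mean size of the pair on a log scale ranks genes by brightness. No pair up to 10000 gave any of the 8 readings of Ptma or of Ptms, which ranked at the 95.4th and 89.9th percentile of genes. Only 59.3% to 61.9% of the values on an array had a pair up to 10000. Beyond that size the matched pair can be set by the 9 decimals alone. The order of genes at the bright end is therefore uncertain, and these high percentiles are not measured brightness. All 7 readings of Hmgb1 were ratios of whole numbers of at most 2581, and all 8 of Hmgn2 of numbers of at most 8273, which puts them at the 32.97th and 44.3rd percentile. The 25% of genes ranked brightest held 5 of the 9 members (Ptma, Ptms, Tmsb10, Hmgb2 and Hmgn1) and the 25% ranked dimmest none. The members with spots that disagreed most were thus the dimmer ones and, at day 10, Hmga2 at the 63.6th percentile.

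Against the genes in the same 25% by this uncertain ranking, Ptma at day 3 was precise and at day 10 was not. The median SD of technical arrays in the 25% ranked brightest was 0.14 at day 3 and 0.19 at day 10, where Ptma had 0.07 and 0.52. Both spots of Ptma were lower on the first day 10 array than on the second, by 0.73 and 0.75, so that SD came from the arrays and not from the spots. The cause of this offset was not tested. Hmgb1, in the second dimmest 25%, had 0.88 at day 3 against a median of 0.38 there.

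**Figure D4:**
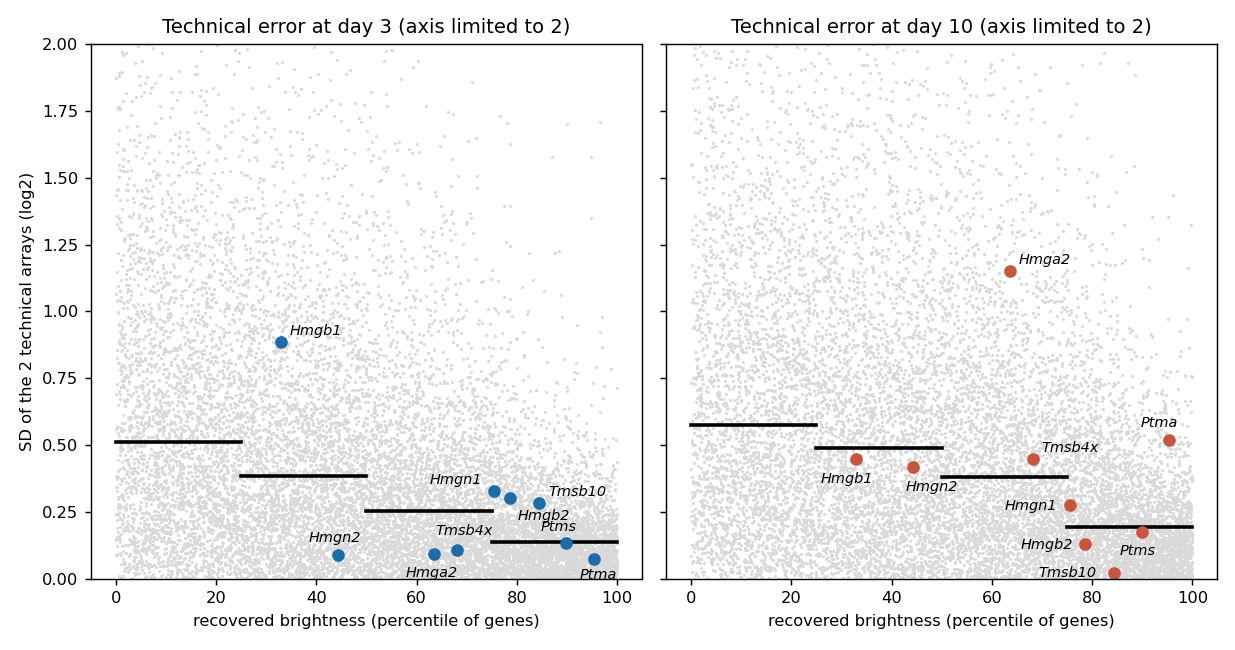
SD of the 2 technical arrays (vertical axis, log2) against the percentile of recovered brightness (horizontal axis) for all genes (grey; 164 genes at day 3 and 269 at day 10 lie above the plotted range), with the median of each 25% of genes as a black bar and the members as coloured points. The medians fall from 0.51 to 0.14 at day 3 and from 0.57 to 0.19 at day 10, and Ptma lies below the last bar at day 3 and above it at day 10.

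The genes whose 4 array values lay closest to those of Ptma, by Euclidean distance over 12654 genes, were Hspe1 (distance 1.18), which encodes the co-chaperonin of mitochondria, Rpl22l1 (1.23), a paralogue of a ribosomal protein gene, and Ppia (1.27), the gene of cyclophilin A. Hspe1 had 2.07 ± 0.05 at day 3 and -1.05 ± 0.47 at day 10, Rpl22l1 had 3.11 ± 0.29 and -0.69 ± 0.30, and Ppia had 2.60 ± 0.04 and -0.60 ± 0.22. None of these came as far to the negative side at day 10 as Ptma. Closest to Hmgn1 were Atp2a2 (distance 0.23), the calcium pump of the endoplasmic reticulum, Rpl5 (0.31), a protein of the large ribosomal subunit, and Atp6v1c1 (0.32), a subunit of the vacuolar proton pump. Their day 3 means were 1.17 ± 0.35, 1.49 ± 0.21 and 1.16 ± 0.28. The points compared are 4 arrays of 2 RNA pairs, so likeness here is a description.

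Other genes of the same families were measured for 8 of 17 listed names. Of these, 1 was beyond 2-fold at day 3 (positive) and none at day 10, with list medians of 0.12 and 0.33. The called gene was Hmgb4, an HMG-box gene known from the testis, with array values of 1.17 and 1.32 at day 3 and of 0.14 and 0.10 at day 10. Hmgb3 had 0.80 and 1.11 at day 3 but 1.54 and -0.81 at day 10, and it was dim, at the 7.93rd percentile. Hmgn3 had 0.28 and 2.44 at day 3, so its arrays disagreed. Tfam, the HMG-box protein that packs mitochondrial DNA, and Ubtf, that of ribosomal gene transcription, had means of -0.28 ± 0.37 and 0.05 ± 0.26 at day 3.

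HMGN proteins and prothymosin alpha are known to bind or compete with the linker histones. Of 21 listed names of linker and variant histones, 6 were measured. The 21 names include older and newer names of the same genes, so this is not a share of genes. None was beyond 2-fold at either day, with list medians of 0.28 at day 3 and -0.45 at day 10. H1f5 was at 0.47 ± 0.20 and -0.52 ± 0.39, H1f4 at 0.41 ± 0.05 and -0.21 ± 0.46, and H1f3 at 0.63 ± 0.10 and 0.24 ± 0.40. H1f2 was at -0.53 ± 0.11 and -0.42 ± 0.15, and H1f1 at 0.15 ± 0.57 and -0.47 ± 0.09. The variant histone gene H3f3b was at -0.03 ± 0.12 and -0.80 ± 0.05, the lowest day 10 mean of the list. Among histone chaperones and abundant nucleolar proteins, 1 of 13 was beyond the limit at day 3 (Npm1, nucleophosmin, negative, at -1.19 and -3.33) and 0 of 14 at day 10. Nap1l1, a nucleosome assembly chaperone, had 0.53 ± 0.03 and -0.24 ± 0.10.

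Actin and its regulators, the partners of the beta-thymosins, were measured for 16 genes at day 3 and 15 at day 10. At day 3, 1 was beyond the limit (Twf2, twinfilin 2, negative, at -1.57 and -1.09) and at day 10 none, with medians of 0.09 and -0.03. Actb itself had 0.06 and 0.27 at day 3 and -0.23 and -0.001 at day 10, close to 0 on all arrays. Cfl1, the filament-severing cofilin 1, had -0.51 ± 0.19 and -0.74 ± 0.24.

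In the list around let-7 and its antagonist Lin28, 0 of 13 genes were beyond 2-fold at day 3 and 1 at day 10 (Arid3b, an AT-rich DNA binding factor, positive, with 1.78 and 1.86), with medians of -0.17 and 0.41. Lin28a had -0.58 ± 0.78 at day 3 and -0.16 ± 0.35 at day 10, and Lin28b -0.61 ± 0.66 and -0.03 ± 1.06, so neither lay farther from 0 than its SD. Of 9 genes of the Keap1 and Nrf2 pathway, in which prothymosin alpha is a known partner of Keap1, 1 was beyond the limit at day 3 (Txnrd1, thioredoxin reductase 1, negative, at -1.94 and -1.95) and none at day 10. Keap1 had -0.18 ± 0.92 and 0.61 ± 0.85. Of the receptors and partners of HMGB1, 0 of 8 were beyond the limit at day 3 and 0 of 7 at day 10. Across the 7 lists, calls were 5 in all over both days, and each list held at most 1 at either day, where 2.8% of all genes were called at day 3 and 3.65% at day 10. Nothing is read from counts of this size.

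Markers of the cell types that stem cells and embryoid bodies can hold were followed on the same arrays. Of 9 measured pluripotency genes, all had negative means at day 3 (between -2.70 and -0.28, median -0.47), with 1 beyond the limit (Dppa5a, at -2.73 and -2.68). At day 10 their median was -0.38 over 8 genes, from -1.37 (Pou5f1) to 1.28 (Fgf4). Pou5f1 had -0.66 and -2.08 there, and Dppa5a had 0.44 and -2.83. The 1 gene beyond the limit was on the positive side (Fgf4, a growth factor gene of early embryonic cells, with 1.54 and 1.01). Fgf4 ranked at percentile 23.4 of brightness. Erythroid genes had a median of -0.04 over 4 genes at day 3 and 1.05 over 6 genes at day 10. At day 10 the 6 means ran from -0.66 to 1.32, and 2 of the 6 were beyond the limit, against 3.65% of all genes. These were Epor (1.44 and 1.19) and Alas2 (1.42 and 1.08). Both ranked low by brightness, at percentiles 2.61 and 5.46. The medians are of different gene sets. Of 5 endothelial genes, 1 was beyond the limit at day 3 (Tie1, a receptor of endothelial cells, positive, with 1.98 and 1.47), against 2.8% of all genes, and none at day 10. The medians of fibroblast (0.11 and -0.16), leukocyte (0.02 and 0.16), endothelial (0.12 and -0.02), cardiac muscle (-0.23 and -0.04) and visceral endoderm genes (0.01 and 0.32) were nearer to 0 than that of the erythroid genes at day 10. Ratios do not give a level, so whether a marker was present at all cannot be read from them, and the part of the cell makeup in the members' ratios was not tested.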

How the data were processed

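Total RNA of 2 channels was measured on each of 4 arrays, 2 technical arrays for each of day 3 and day 10. The authors deposited log2 ratios in 1 value table; the sources used here do not name the scanner, background correction, normalization, dyes or numerator. Base 2 was checked on the first 5000 values of the first day 3 array. Of these, 27.9% were logs of ratios of whole numbers up to 1000 in base 2, against 0.06% in base e. Spots were named through the platform annotation and RefSeq (GRCm38.p6). Spots with several symbols or none and 480 control spots were left out. The median of the named spots was subtracted per array, and spots were averaged per gene (Python 3.11.15, numpy 2.4.6, pandas 2.3.3). A gene was called beyond 2-fold on 1 side on both arrays, or in all 4 array differences between days. There is 1 RNA pair per day, so nothing was tested. The number of arrays, 2 per day, limits the precision. All members were described, with at most 4 called genes per list, Actb, and the 3 genes nearest to each called member; others named were chosen after their values were seen. Members and lists were chosen with earlier results of these data known. The steps were tested on simulated data. Alternatives were other centring, spread, spot, limit, brightness, day 10 sign and left-out array settings.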

Additional observations from a re-analysis of the deposited data

Results flagged for a closer look

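In 4 of the 9 measured members every day 3 array stood on one side of 0 and every day 10 array on the other, against 13.8% of 12654 genes. The day 10 minus day 3 differences of the log2 ratios were -4.25 for Ptma, -1.57 for Hmgn1, -1.61 for Hmga2 and 0.59 for Tmsb4x. This holds for the deposited signs only. With the day 10 sign turned, these 4 are no longer opposite, and Ptms and Hmgn2 are (2 of 9 members, against 27.0% of all genes). The differences were not tested, because each day is 1 RNA pair. The members were selected with their ratios on these arrays known, so nothing is read from the count of 4. For Hmga2 and Tmsb4x the day 10 SD exceeded the size of the mean. The Hmga2 value includes the reading of -3.22 from a single spot, and the Tmsb4x value includes 0.70 from a single spot.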

How the results depend on the processing

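No paired analysis was possible because the replicate numbers only name technical arrays in accession order and no test was made. The counts of moved values leave out the turned day 10 sign. Of the members' values under the other settings, 72 with an array left out and 27 from the median of spots could not move beyond the SD by construction. Of the other 135, 126 moved by less than the SD and 9 by more. Under these settings 6 values changed sign, each with an array left out and none of them called. The turned day 10 sign did reverse differences, such as that of Hmgn2 from -0.38 to 1.501, which was then called. Those of Ptma and Hmgn1 kept their sign. The count of members beyond the limit at day 3 was 1 at 4-fold. At day 10 it was 3 at 1.5-fold, 0 at 4-fold, 2 when the limit was set on the mean, 0 with the brightness trend removed, and 2 with either array left out. For the difference it was 3 at 1.5-fold and on the mean (Ptma, Hmgn1 and Hmga2), 1 at 4-fold, and 2 to 3 with an array left out. With the day 10 sign turned it was 1, the Ptma difference was -1.36, and 1163 of all genes were beyond the limit. The mean of Ptma at day 3 was 3.05 with a common spread of the arrays. Counts over all genes at day 3 were 615 with the closest spot, 1611 at 1.5-fold, 23 at 4-fold, 1092 on the mean and 1800 to 2012 with an array left out. At day 10 they were 768, 1825, 28, 1413 and 2254 to 2797, and for the difference 792, 1301, 44, 2039 and 1297 to 2008. Leaving out an array leaves no second reading, which by construction lets more genes pass. Centring on all spots but controls and the turned sign were added after the data were seen. Spots that disagreed limit Hmgb1 and Hmgn2, with differences of up to 2.82 and 1.57 (log2) on an array. These genes ranked at the 32.97th and 44.3rd percentile by the uncertain brightness ranking. The spots of Hmga2, at the 63.6th percentile, differed by up to 2.76. Whether dimness was the cause was not tested.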
